A study of Mus musculus with 2 samples.

Results

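The E2F transcription factors and the Rb pocket proteins were examined in bone marrow (BM) LSKs, marrow cells without lineage markers that carry Sca1 and c-Kit and hold the stem and early progenitor cells of the blood. The 10 genes were taken by name from the 34745 genes of the deposited tables. They are E2f1, E2f2, E2f3, E2f4, E2f6, E2f7, E2f8, Rb1, Rbl1 and Rbl2. All 10 passed a minimum of 10 reads over both libraries, as did 13689 genes in all. The mice were Scl/tTA-BCR/ABL (BA) double transgenic mice on the C57BL/6 background, in which Scl sequences drive the transactivator tTA, and tTA drives BA once doxycycline is withdrawn. LSKs were sorted at week-0, from mice on doxycycline, and at week-3 after withdrawal. All mice carried both transgenes, so BA induction, the withdrawal of the drug and the time passed cannot be told apart. Each time point is 1 RNA-seq library made from the mixed LSKs of 3 mice. The spread between mice is therefore unknown, no difference below has a replicate check, and no p-value is given. Fewer cells of a type and less RNA per cell cannot be told apart in such libraries either.

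E2F factors bind DNA with a DP partner, usually Tfdp1 or Tfdp2, at genes needed for DNA replication and mitosis. E2f1, E2f2 and E2f3 are the activators, held in check by Rb1. E2f4 acts mainly as a repressor together with Rbl1 (p107) and Rbl2 (p130), in the DREAM complex of resting cells. E2f6 represses as part of a Polycomb complex without pocket proteins, and the atypical E2f7 and E2f8 repress without a DP partner and are themselves E2F targets. Cyclin-dependent kinases phosphorylate the pocket proteins and so release the E2Fs. In blood stem cells the pocket proteins are known for restraining entry into the cell cycle.

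Because several of these genes are known targets of E2F, their promoters were searched for the E2F motif. RefSeq promoter windows, from 250 bases before to 50 after a transcript start on GRCm38.p6, were at hand for 8 of the 10 genes, 10 windows in all. E2f4 and Rb1 had none. The spellings TTTCCCGC, TTTCGCGC, TTTGGCGC and TTTGCCGC were searched on both strands. At least 1 was found in 4 of the 10 windows, those of E2f2, E2f3, E2f7 and Rbl1, against 2.26% of all 32851 windows. These 4 windows are shown because they hold the motif, printed 5′ to 3′ on the strand of the gene with the E2F match in capitals. In E2f3 and E2f7 the match is on the other strand, so that TTTCCCGC reads GCGGGAAA here.
E2f2, chr4:136172024-136172323, + strand: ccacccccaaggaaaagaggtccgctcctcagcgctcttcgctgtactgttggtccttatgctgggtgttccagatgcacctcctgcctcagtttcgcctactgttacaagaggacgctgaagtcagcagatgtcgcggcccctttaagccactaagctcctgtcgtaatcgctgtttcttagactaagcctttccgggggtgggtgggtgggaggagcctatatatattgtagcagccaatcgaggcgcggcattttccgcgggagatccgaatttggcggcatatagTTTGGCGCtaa
E2f3, chr13:29986014-29986313, - strand: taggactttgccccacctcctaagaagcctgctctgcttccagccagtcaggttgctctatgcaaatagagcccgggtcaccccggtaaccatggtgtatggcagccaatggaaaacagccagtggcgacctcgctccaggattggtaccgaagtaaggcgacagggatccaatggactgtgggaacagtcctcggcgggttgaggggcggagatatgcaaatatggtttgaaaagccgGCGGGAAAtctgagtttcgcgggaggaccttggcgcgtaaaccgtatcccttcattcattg
E2f7, chr10:110745189-110745488, + strand: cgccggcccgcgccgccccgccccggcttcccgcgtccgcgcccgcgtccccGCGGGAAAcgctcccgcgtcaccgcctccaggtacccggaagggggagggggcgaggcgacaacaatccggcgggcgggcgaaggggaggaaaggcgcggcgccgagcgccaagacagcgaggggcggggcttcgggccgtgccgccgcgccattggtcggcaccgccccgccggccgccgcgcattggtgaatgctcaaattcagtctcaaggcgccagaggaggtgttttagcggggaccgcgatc
Rbl1, chr2:157204485-157204784, - strand: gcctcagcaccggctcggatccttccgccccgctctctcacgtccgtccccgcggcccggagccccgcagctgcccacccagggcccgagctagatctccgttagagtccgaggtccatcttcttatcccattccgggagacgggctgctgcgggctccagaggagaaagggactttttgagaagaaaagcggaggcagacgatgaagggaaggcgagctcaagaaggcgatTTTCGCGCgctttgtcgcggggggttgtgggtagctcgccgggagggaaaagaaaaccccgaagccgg
The matches lay 39 to 46 bases after the start in E2f2, from -11 to -4 in E2f3, from -198 to -191 in E2f7 and from -18 to -11 in Rbl1. The CHR motif, TTTGAA or TTCGAA on either strand, through which DREAM is known to reach genes of mitosis, was found in 4 of the 10 windows, against 19.2% of all windows. In E2f3 it lay next to the E2F match without overlap, from -23 to -18, and in E2f8 from -20 to -15. The window of E2f1 starts at a transcript 466 bases inside the gene as the deposited tables bound it, so it does not cover the outermost start. The transcript starts of the first windows of E2f2 and E2f3 lie at -120 and -395 bases from the gene start so bounded. Those of their second windows lie 8388 and 1277 bases inside the gene. The second window of E2f2 held a CHR match, and that of E2f3 held no match. A match is a run of letters and not evidence of binding.

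**Figure D1:**
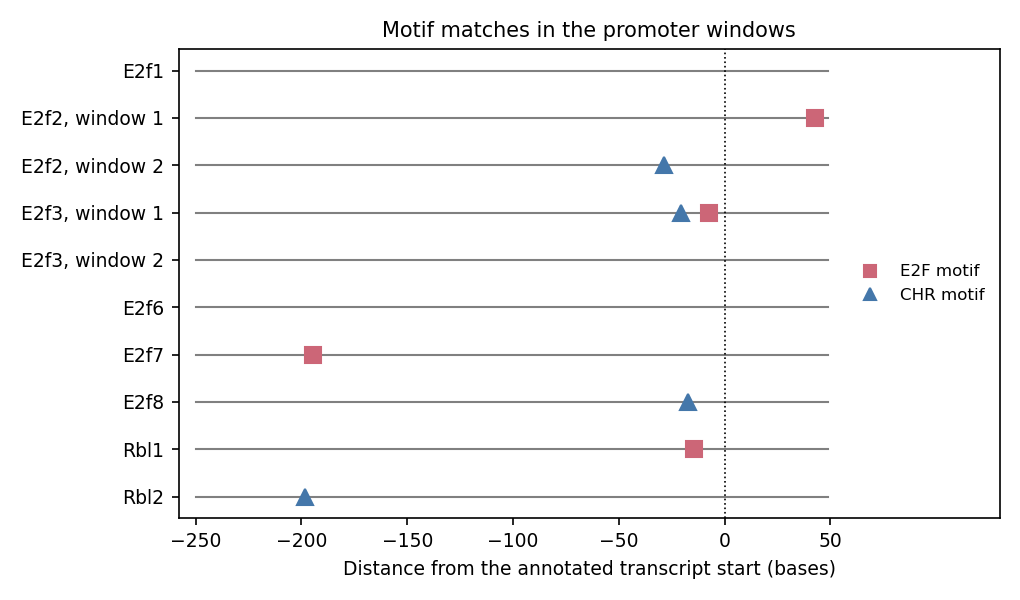
Matches of the E2F motif (squares) and the CHR motif (triangles) in 10 promoter windows of 8 genes, by distance from the annotated transcript start in bases. E2F matches lie within 20 bases before the start in E2f3 and Rbl1, further upstream in E2f7 and after the start in E2f2.

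The libraries held 6356164 reads on genes at week-0 and 3886695 in the week-3 library, so a gene at the same level had 1.635 times as many reads at week-0. Both genes of the sort were detected, Kit at 16.9 and 11.5 FPKM and Ly6a (Sca1) at 19.8 and 14.8 FPKM. The libraries differed in markers of several cell types. For comparison, 11.9% of the 13689 genes with reads enough were at least 2 times higher at week-3. A further 17.9% were at or below 0.5 times. All 10 neutrophil granule genes were at least 2 times higher at week-3, with summed levels of 2032 and 10989 FPKM. Of 9 mast cell genes, 8 had reads enough and all 8 were at least 2 times higher, with sums of 61.6 and 3078 FPKM, where Tpsb2 and Mcpt4 had 0 reads at week-0 and Cma2 had 0 in both libraries. Of 10 erythroid genes, 8 were at or below 0.5 times and 1 (Tfrc) was at least 2 times higher, with sums of 1337 and 106 FPKM. Of 12 B and plasma cell genes, 10 had reads enough and 6 were at or below 0.5 times, with sums of 351 and 83.9 FPKM. Among 9 stem and multipotent progenitor genes 4 were at or below 0.5 times, with sums of 296 and 107 FPKM for the list. In this list 1 gene (Slamf1, on 10 and 15 reads) was at least 2 times higher. The 95% counting interval of the log2 ratio, described below, was below 0 for 8 of these 9 and above 0 for Slamf1. Over all genes it was below 0 for 27.3% and above 0 for 31.7%. Of 9 T and NK cell genes 3 had reads enough and none passed 2 times in either direction, with Nkg7 making up 279 of 284 FPKM at week-0 and 422 of 426 FPKM at week-3. The part of these differences in the results below was not tested.

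E2f4, the repressor, was by far the most abundant of the 10 transcripts in both libraries. Levels are given as FPKM, fragments per kilobase of exon and scaled by total reads, with the 95% Poisson interval of the reads, which covers counting error only. E2f4 stood at 24.9 FPKM at week-0 (22.2 to 27.8, 315 reads) and 28.0 FPKM at week-3 (24.4 to 32.0, 217 reads). In FPKM it was 4.19 times the next gene, Rbl1, at week-0 and 4.6 times the next gene, E2f1, at week-3. Per merged exon length, described below, this lead is smaller. The lead of E2f4 over the other members was thus far beyond counting error in both libraries. Among the 13689 genes with reads enough, E2f4 was in the top 13.7% at week-0, and Rb1, the lowest member, was in the top 81.3%. Below E2f4 the order at week-0 was Rbl1, E2f3, E2f8 and E2f1, and none of these neighbours differed beyond counting error. E2f1 was 1.88 times E2f2 (interval 1.38 to 2.58). From E2f2 through Rbl2 and E2f6 to E2f7, no step was beyond counting error. E2f7 was 1.76 times Rb1 (interval 1.19 to 2.66). At week-3 the order after E2f4 was E2f1, Rbl1, E2f2, E2f8, E2f3, E2f6 and Rbl2, with no step beyond counting error. Rbl2 was 2.22 times E2f7 at week-3 (interval 1.49 to 3.33), and E2f7 and Rb1 came last.

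**Figure D2:**
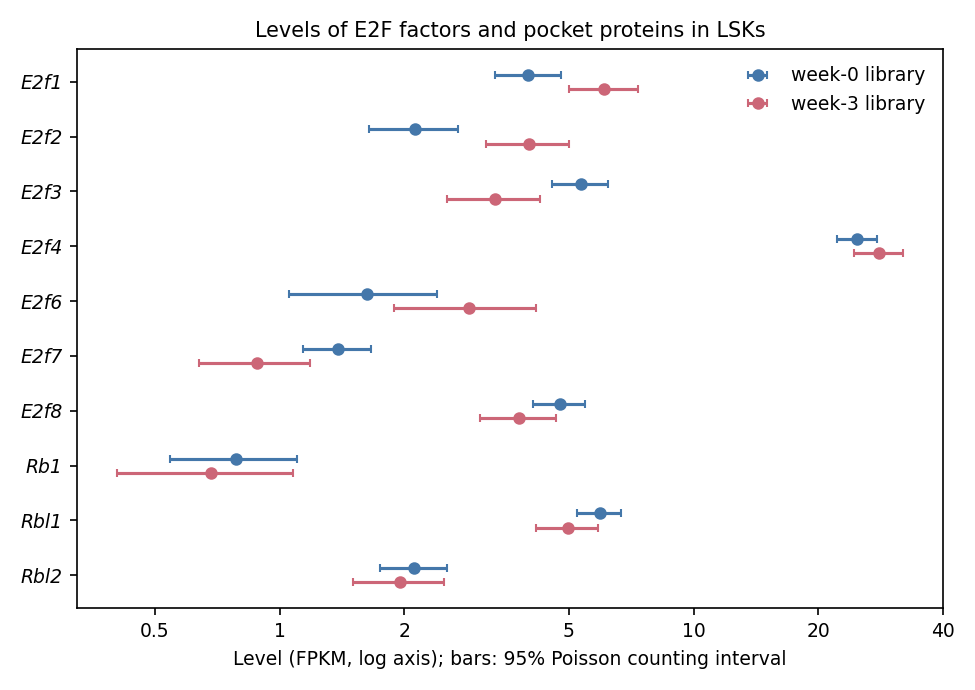
Level of each gene in the week-0 and week-3 libraries in FPKM on a log axis, with 95% Poisson intervals that cover counting error only. E2f4 lies above 20 FPKM in both libraries and Rb1 below 1, and only E2f1, E2f2 and E2f3 have intervals that do not overlap between the libraries.

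No member reached a change of 2 times in either direction. A ratio of at least 2 was found for 0 of 10 members and 11.9% of all genes, and a ratio of at most 0.5 for 0 of 10 and 17.9%. With the wider limits of 1.5 and 0.67, 3 of 10 members were higher at week-3, against 24.6% of all genes, and 2 of 10 were lower, against 27% of all genes. The 95% interval of the log2 ratio, the exact Clopper-Pearson interval for counting error only, lay above 0 for 2 of 10 members and 31.7% of all genes. It lay below 0 for 2 of 10 members and 27.3% of all genes. The median change of the 10 genes in log2(FPKM + 0.1) was -0.15, and that of all genes was 0.05. These shares are near those of all genes or below them, so the 10 genes as a group did not stand out by the number that differed.

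The activators differed in opposite directions. E2f2 (ENSMUSG00000018983, GRCm38 chromosome 4, bases 136172394 to 136196057) had 66 reads, or 2.12 FPKM, at week-0, and 76 reads and 4.0 FPKM at week-3. Its log2 ratio of 0.91 (95% interval 0.42 to 1.41) was the highest of the 10. E2f1 (ENSMUSG00000027490, chromosome 2, bases 154559407 to 154569892) had 119 reads, or 3.99 FPKM, at week-0, and 111 reads and 6.09 FPKM at week-3, a log2 ratio of 0.61 (0.22 to 0.99). Both were higher in the week-3 library beyond counting error. E2f3 (ENSMUSG00000016477, chromosome 13, bases 29906575 to 29985668) went the other way, with 163 reads and 5.34 FPKM at week-0 and 62 reads and 3.32 FPKM at week-3. Its log2 ratio of -0.68 (-1.13 to -0.25) was the lowest of the 10. E2f3 makes 2 main proteins, E2f3a and E2f3b, from separate starts, and the counts per gene do not separate them.

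Among the other E2Fs, E2f4 (ENSMUSG00000014859, chromosome 8, bases 105297663 to 105305369) had a log2 ratio of 0.17 (-0.08 to 0.43), an interval that contains 0. E2f6 (ENSMUSG00000057469, chromosome 12, bases 16810965 to 16826743) had 25 reads and 1.62 FPKM at week-0, and 27 reads and 2.87 FPKM at week-3. Its log2 ratio of 0.82 was nearly as high as that of E2f2, but with so few reads its interval ran from -0.02 to 1.67. E2f7 (ENSMUSG00000020185, chromosome 10, bases 110745439 to 110787384) had 113 reads and 1.38 FPKM at week-0, and 44 reads and 0.882 FPKM at week-3, a log2 ratio of -0.65 (-1.19 to -0.14). E2f8 (ENSMUSG00000046179, chromosome 7, bases 48866429 to 48881596) had 189 reads and 4.76 FPKM at week-0, and 92 reads and 3.79 FPKM at week-3, with a log2 ratio of -0.33 (-0.70 to 0.04). Both atypical repressors thus had lower values at week-3. E2f7 was beyond counting error with the 95% interval but not with a 99% interval, and E2f8 only with the TMM and median-of-ratios scalings.

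No pocket protein differed beyond counting error with scaling by total reads. Rbl1 (ENSMUSG00000027641, chromosome 2, bases 157145893 to 157204534), the most abundant of the 3, had 266 reads and 5.94 FPKM at week-0 and 136 reads and 4.96 FPKM at week-3, a log2 ratio of -0.26 (-0.57 to 0.05). With TMM scaling its log2 ratio of -0.34 lay beyond counting error. Rbl2 (ENSMUSG00000031666, chromosome 8, bases 91070057 to 91123844) had 115 and 65 reads, levels of 2.11 and 1.95 FPKM and a log2 ratio of -0.11 (-0.58 to 0.34). Rb1 (ENSMUSG00000022105, chromosome 14, bases 73183673 to 73325822) had 34 and 18 reads, levels of 0.787 and 0.681 FPKM and a log2 ratio of -0.21 (-1.12 to 0.66). The interval of its ratio ran from 0.460 to 1.58, so a change of Rb1 within these bounds was not detectable at this depth.

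**Figure D3:**
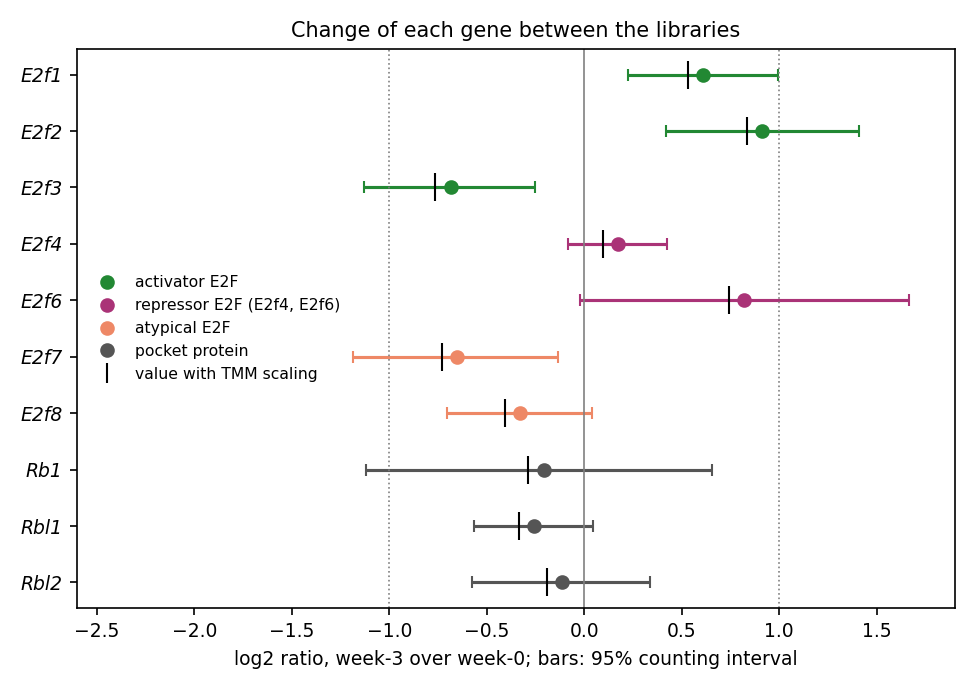
log2 ratio of week-3 over week-0 for each gene, coloured by role, with 95% counting intervals, and black ticks at the value with TMM scaling. E2f1 and E2f2 lie to the right of 0 and E2f3 and E2f7 to the left with intervals clear of 0, and no point reaches the dotted lines at a change of 2 times.

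Ratios between members within a library do not depend on how the libraries are scaled, and all 45 pairs were compared in this way. The largest shift was that of E2f2 against E2f3. E2f2 stood at 0.398 times the level of E2f3 at week-0 and at 1.20 times at week-3, a ratio of ratios of 3.03 (exact conditional 95% interval 1.9 to 4.82). E2f1 went from 0.748 to 1.84 times E2f3 in FPKM, a ratio of ratios of 2.45 (1.63 to 3.70). Per merged exon length these ratios were 1.26 and 3.08, so E2f1 was above E2f3 in both libraries on that scale, and the ratio of ratios alone is free of length. E2f1 and E2f2 did not shift against each other beyond counting error, with 1.23 for E2f2 over E2f1 (0.79 to 1.92). Of the 8 pairs within a role, only E2f2 with E2f3 and E2f1 with E2f3 had a 95% interval clear of 1. The E2f8 to E2f7 pair was at 1.25 (0.80 to 1.97), E2f6 to E2f4 at 1.57 (0.85 to 2.90) and Rbl2 to Rbl1 at 1.11 (0.75 to 1.62). The shift among the activators was thus that of E2f3 against both others. Over all pairs 20 of 45 had an interval clear of 1, and 9 of 45 when the intervals were widened for the number of pairs. Each of those 9 set E2f1, E2f2 or E2f4 higher against E2f3, E2f7, E2f8 or Rbl1. E2f2 shifted by 2.37 times against E2f8 (1.53 to 3.65) and by 2.25 times against Rbl1 (1.5 to 3.39).

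The summed FPKM of the 7 E2F genes was 44.1 in the week-0 library, against 48.97 at week-3, and that of the 3 pocket protein genes was 8.84 and 7.60. E2f4 made up 56.4% of the E2F sum at week-0 and 57.2% at week-3. E2f4 and E2f6 together held 60.1% and 63.1% in FPKM, but 50.8% and 52.6% per merged exon length. The activators together made up 26.0% and 27.4% of the E2F sum, with 11.5 FPKM at week-0 and 13.4 FPKM at week-3. Their make-up differed more than their share of the E2F sum. Within the activators, E2f3 held 46.6% at week-0 and 24.8% at week-3, E2f1 held 34.9% and 45.4%, and E2f2 held 18.5% and 29.8%. Per merged exon length, described below, E2f3 held 36.9% and 18.4%, E2f1 46.4% and 56.6%, and E2f2 16.6% and 25.04%. The share of E2f3 was thus lower at week-3 on both scales, but whether E2f3 or E2f1 was the first of the activators at week-0 depends on the length used. E2f7 and E2f8 together held 13.9% of the E2F sum at week-0 and 9.53% at week-3. Within the pocket proteins the shares were nearly the same in both libraries. Rbl1 held 67.2% and 65.3%, Rbl2 23.9% and 25.7%, and Rb1 8.91% and 8.97%.

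**Figure D4:**
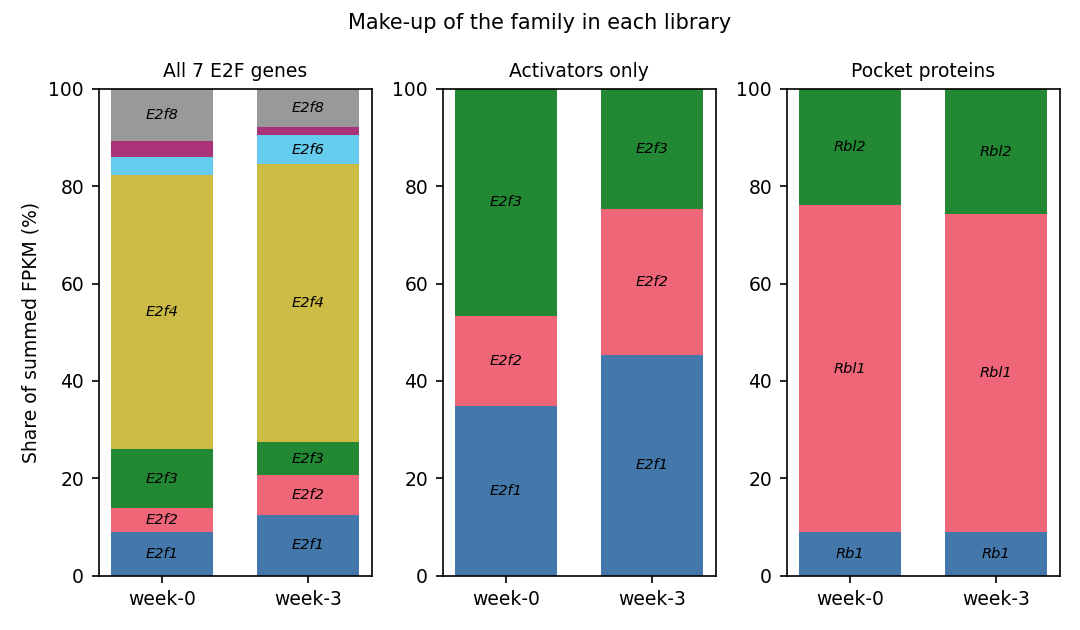
Share of the summed FPKM of the 7 E2F genes, of the 3 activators alone and of the 3 pocket protein genes, in percent for each library. Among the activators E2f3 shrinks from 46.6% to 24.8%, and the pocket protein shares hardly differ; the thin bands without a name are E2f6 and E2f7.

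The lengths behind the FPKM bear on these levels. The length that FPKM and reads imply was equal, within 1 base, to the summed lengths of all distinct exons in GENCODE M21 for 6 members, overlapping exons counted each time. Among 6954 genes with overlapping exons, at least 50 reads and unchanged coordinates, 86.2% showed this, and 0.273% had the merged exon length. For E2f1 the length behind the FPKM was 4688 bases and the merged exons had 3154, and for E2f7 they were 12838 and 9009, so the FPKM of both are low beside the other genes. Per merged exon length, E2f1 was the third most abundant member at week-0, not the fifth, at 5.94 on the FPKM scale, and E2f6 was the last with 0.695. For E2f4 the length behind the FPKM was 1992 bases and the merged exons had 2452, so its FPKM is high beside those of Rbl1 and E2f1. Per merged exon length E2f4 was still first, with 20.2 at week-0, where Rbl1 was next with 6.98. At week-3 E2f4 had 22.8 and E2f1 was next with 9.05. The ratio between the libraries of each gene does not depend on its length. Exons of Rb1 overlap those of Rcbtb2 and Lpar6, and exons of Rbl2 those of Aktip and Gm45464. Exons of E2f8 overlap those of Gm2788, and exons of E2f7 those of 1700020G17Rik. All of these lie on the opposite strand. The cDNA kit does not mark strand and the treatment of shared reads is not stated. The counts of Rb1, Rbl2, E2f8 and E2f7 are thus uncertain in this respect, among them the low count of Rb1.

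The partners of the E2Fs had lower values at week-3, Tfdp1 beyond counting error. Tfdp1, the main DP partner, stood at 64.7 FPKM at week-0 and 50.1 FPKM at week-3, a log2 ratio of -0.37 (-0.56 to -0.18), and no E2F gene reached its level. Tfdp2 was at -0.28 (-0.56 to 0.00) and E2f5, the remaining repressor of the E2f4 type, at -0.58 (-1.46 to 0.24), with 44 and 18 reads. The MuvB core, which joins E2f4 and a pocket protein in DREAM, had no gene past 2 times. Mybl2 and Foxm1, which bind to it, did not pass 2 times either (7 genes in all). Over all genes 11.9% passed this limit upward and 17.9% downward, so with only 7 genes this does not show stability. Mybl2 (B-Myb), which replaces E2f4 on MuvB in cycling cells and is an E2F target, was higher with a log2 ratio of 0.64 (0.34 to 0.93). Lin37 was at 0.27 (0.00 to 0.53), Lin9 at 0.39 and Lin52 at 0.46, and Lin54 and Rbbp4 were at -0.06 and -0.13. Foxm1, which joins later at genes of mitosis, was at -0.29 (-0.70 to 0.11).

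The kinases and cyclins that act on pocket proteins were mixed. Of these 9 genes, 2 were at least 2 times higher and 1 was at or below 0.5 times, near the 11.9% and 17.9% of all genes. Ccne1 and Ccne2, the E-type cyclins and E2F targets, had log2 ratios of 1.57 and 1.93, and Cdk6 of 0.82. Cyclin D3 (Ccnd3) was lower, with 23.9 FPKM at week-0 and 11.0 FPKM at week-3, a log2 ratio of -1.12 (-1.24 to -0.996), and cyclin A2 (Ccna2) was at -0.69 (-0.86 to -0.52). Cdk2, the partner of both E- and A-type cyclins, was at -0.33, Ccnd2 at -0.16, Cdk4 at 0.09 and Ccnd1 at 0.41 (-0.01 to 0.82). Of 7 genes for CDK inhibitors, which keep pocket proteins unphosphorylated, 5 had reads enough, and 2 of these were at or below 0.5 times, against 17.9% of all genes. Cdkn1a (p21) went from 729 to 120 FPKM, a log2 ratio of -2.6 (-2.68 to -2.52). Cdkn1c (p57), on 19 and 3 reads, was at -1.95 (-4.35 to -0.19), Cdkn2d (p19) at -0.78 and Cdkn2c (p18) at -0.41 (-1.19 to 0.33). Cdkn1b (p27) had a log2 ratio of 0.22 (-0.04 to 0.49).

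Known targets were mostly higher at week-3, by small amounts. Of 36 E2F targets of the G1/S transition, 29 had a higher value, and the interval was above 0 for 22 (61.1%) and below 0 for 3 (8.33%). Of all genes, 52.2% had a higher value, with the interval above 0 for 31.7% and below 0 for 27.3%. A ratio of at least 2 was found for 6 of the 36 (16.7%), near the 11.9% of all genes, and of at most 0.5 for 1 (2.78%), against 17.9%. Ccne1 and Ccne2 are in this list as well as among the kinases and cyclins above, and count among these 6. The median change of the 36 was 0.21, beside 0.05 for all genes. Rrm2, a subunit of ribonucleotide reductase, had the highest log2 ratio, 2.12 (1.91 to 2.34), from 10.4 FPKM at week-0 to 45.5 FPKM at week-3. Mcm10, which helps to start replication forks, had a log2 ratio of 1.67. Pole, the catalytic subunit of polymerase epsilon, was the lowest of the 36 at -1.26 (-1.52 to -1.01). Msh6 of mismatch repair followed at -0.54 and Brca1 at -0.48 (-1.09 to 0.10, an interval that contains 0). Of 24 targets of DREAM in G2 and mitosis, 20 (83.3%) had a higher value, against 52.2% of all genes. The interval was above 0 for 17 (70.8%) and below 0 for 1 (4.17%), against 31.7% and 27.3% of all genes. Their median change was 0.41. Only Ttk and Ccnf passed 2 times (8.33%, below the 11.9% of all genes), with log2 ratios of 1.82 and 1.75, and none was at or below 0.5 times. Cyclin B1 (Ccnb1) was just short of 2 times with a log2 ratio of 0.998, while cyclin B2 (Ccnb2) was at -0.20 (-0.35 to -0.05), Kif23 at -0.17 and Mki67 at -0.06. These targets had more reads than the E2F genes, with medians over both libraries of 743.5 and 602 reads against 203 for all genes, and more reads make the interval narrower.

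The partners of E2f6 had values on both sides of 0. Of the 10 genes of its Polycomb complex, PRC1.6, the interval was above 0 for 6 and below 0 for 4, against 31.7% and 27.3% of all genes. L3mbtl2, Cbx3 and Pcgf6 had log2 ratios of 1.05 (0.68 to 1.42), 0.96 and 0.69. Rybp and Ring1, shared with other Polycomb complexes, were at or below 0.5 times with -1.33 (-1.95 to -0.74) and -1.28 (-1.74 to -0.85), and Yaf2 was at -0.49. Of 5 germline genes known to be silenced through E2f6, 2 had at least 10 reads, and Stag3, the only gene with at least 20, had 22 and 11 reads, a log2 ratio of -0.29 (-1.48 to 0.82). Of 8 chromatin corepressors that pocket proteins recruit, none passed 2 times in either direction. Over all genes 11.9% passed this limit upward and 17.9% downward, so with only 8 genes this does not show that the list was stable. The median change of the 8 was 0.11, beside 0.05 for all genes. Suv39h1, a histone methyltransferase, and Arid4b and Sin3b of the Sin3 complex were the highest at 0.39, 0.35 and 0.26. Kdm5a, a histone demethylase first found as a partner of Rb1, was the lowest at -0.33 (-0.51 to -0.15), and Hdac2 and Sin3a were at -0.08 and 0.04.

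**Figure D5:**
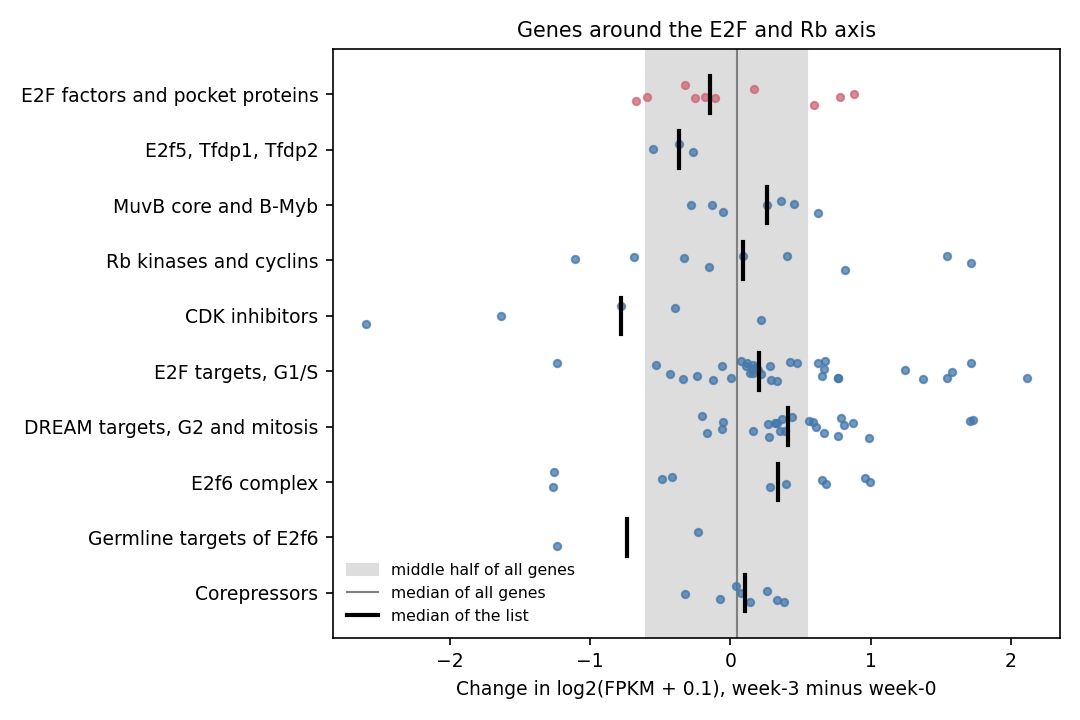
Change of each gene in log2(FPKM + 0.1), week-3 minus week-0, for the 10 genes and 9 lists around them, with list medians as black bars and the middle 50% of all genes in grey. The target lists have medians of 0.21 and 0.41 and the CDK inhibitors of -0.78, and the 10 genes lie on both sides of the median of all genes.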

How the data were processed

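RNA of sorted BM LSKs was measured in 1 library per time point, each pooling 3 mice. For the library, cDNA came from the SMARTer Ultra Low Input protocol. The authors mapped the paired-end reads to GRCm38 (mm10) with TopHat2 2.0.9, as the submitters' processing notes name it. The deposited counts are whole numbers of reads per gene without normalization, and the deposited FPKM are scaled by exon length and by the total reads on genes. The counting tool and the annotation are not given in the sources used here. Coordinates are those of the deposited tables. Tables were joined by Ensembl identifier, and genes with at least 10 reads over both libraries were kept.

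The log2 ratio is that of reads scaled by total reads, which equals the ratio of the FPKM, without a pseudocount. Its 95% interval is the exact Clopper-Pearson interval of the week-3 share of a gene's reads. Ratios between members have exact conditional intervals of the odds ratio. PCR copies are not independent molecules, so intervals cover counting error only. With 1 library per time point no test was run. List medians use log2(FPKM + 0.1). Alternatives were TMM (edgeR 4.0.16) and median-of-ratios scaling (DESeq2 1.42.0) in R 4.3.3, other limits, filters, pseudocounts and lengths. Intervals were tested on simulated independent Poisson counts only. The simulation held no PCR copies and no spread between mice, so it says nothing about either. Exons were read from GENCODE M21 and promoters from RefSeq (GRCm38.p6). The Python packages were scipy 1.17.1, numpy 2.4.6, matplotlib 3.10.9 and pandas 2.3.3 (Python 3.11.15).

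The members and lists were chosen with earlier results of these data known. Named are all 10 members, all E2F partners, MuvB genes and Rb kinases, and of each other list the 3 highest and 3 lowest log2 ratios among genes with at least 20 reads. Of the germline genes Tuba3a and Slc25a31 are named besides, to show how few reads that list rests on.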

Additional observations from a re-analysis of the deposited data

How the results depend on the processing

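TMM and median-of-ratios scaling lowered every log2 ratio by a constant (shifts of -0.08 and -0.07), and the direction of each of the 10 genes was the same under both and with pseudocounts of 0.1 and 1 FPKM. The number of members with the interval below 0 was 4 under either scaling in place of 2, since Rbl1 and E2f8 joined E2f3 and E2f7, and 1 (E2f3) with a 99% interval. The limits of 1.5 and 0.67 gave 3 members higher and 2 lower in place of 0 and 0. Without a filter on reads, 19.9% of all genes had a ratio of at least 2. Among genes with at least 50 reads, as all 10 members have, 8.87% had a ratio of at least 2 and 12.7% of at most 0.5.

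Of the lists, the median of the CDK inhibitors was -0.59 without the filter and with at least 50 reads, and with the latter 1 was at or below 0.5 times. L3mbtl2 of the E2f6 complex was under 2 times with TMM and with median-of-ratios scaling, which left 0 genes past that limit. The germline genes had a median of -0.32 without the filter, where 1 gene (Slc25a31) was past 2 times, and of -0.31 with a pseudocount of 1 FPKM. With at least 50 reads no germline gene remained, so there was no median and 0 genes were at or below 0.5 times.

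By read counts in place of FPKM, E2f4 and E2f6 made up 34.3% of the E2F sum at week-0, against 38.8% at week-3, and E2f7 and E2f8 30.5% and 21.6%, since reads are not divided by the lengths of 12838 bases for E2f7 and 1992 for E2f4. Per merged exon length, an alternative chosen after seeing the data, the activators held 31.1% and 35.1%, and E2f1 in place of E2f3 was the first activator at week-0. Depth limits E2f6 and Rb1 most. No paired analysis was possible because each time point has 1 library.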

Other observations

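E2f6 is the member whose level depends most on the annotation. Its length behind the FPKM was 2421 bases, and its merged exons in GENCODE M21 had 5663 bases. The gene ends at base 16826743 in the deposited tables and at 16839742 in GENCODE M21. Its level was 1.62 FPKM at week-0 and 0.695 on the FPKM scale per merged exon length, and its log2 ratio is the same on both scales. E2f3 and E2f4 also have other ends in GENCODE M21 than in the deposited tables. The deposited tables place 7 of the 10 genes in the KEGG cell cycle pathway, where 114 of 13689 genes with at least 10 reads are found, and leave out E2f6, E2f7 and E2f8.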
